A study of Homo sapiens with 12 samples.

Results

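Replication-dependent histone genes, and the RNA transcribed downstream of them, were followed in RNA pulled down with J2, an antibody to double-stranded RNA. The cells were NCI-H1944, a human lung adenocarcinoma line, with an IFNAR1 knockout genotype (IFNAR1sg) or a wild-type genotype (SCR). IFNAR1 is part of the receptor that type I interferons bind. In each genotype, cells had been given the MPS1 inhibitor BAY-1217389 (MPS1i), recombinant interferon beta (IFNb) or DMSO. MPS1 is a kinase of the spindle checkpoint, and its inhibition makes chromosomes missegregate. MPS1i was given at 100 nM for 48 h and then washed out, and all cells were cultured for a further 24 h, with IFNb at 5 ng/ml in the IFNb groups. The 6 groups had 2 libraries each. The sources used here do not say whether the knockout cells were 1 clone or a pool.

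The counted features were stranded regions of hg38 that do not overlap on a strand. Histone genes were those in the clusters on chromosomes 6 and 1 whose current symbol starts with H1-, H2AC, H2BC, H3C or H4C, which gave 74 genes, 64 protein-coding and 10 pseudogenes. A region was a member when it lay inside such a gene, or started within 5000 bases past its end in GENCODE, on either strand. This gave 1093 of 5254113 regions. Of these, 750 lay on the strand of the gene and 343 lay on the opposite strand only. RefSeq gives some genes a longer end: by its end of H2BC12, 3 of the tested opposite-strand regions, all opposite H2AC11, would be gene-strand members of H2BC12. On the gene strand 592 regions had a read and 121 passed the filter on low counts, and those 121 held 88.1% of the 41571 member reads of that strand. On the opposite strand 158 regions had a read and 14 passed, holding 70.8% of 3555 reads. The regions that passed are therefore a minority of the members, and the counts below are over those alone. The filter asks for enough reads in only as many libraries as 1 group holds. A region can thus pass through the group in which it is high.

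Library totals ran between 3739443 and 7430687 reads, of which 1826 to 6237 fell in gene-strand member regions and 162 to 541 in opposite-strand ones. Both SCR IFNb libraries stood apart, where 295367 and 296843 regions had a read, against 566704 to 935974 in the remaining 10 libraries. IFNAR1, summed over the regions on its strand, had 15.3 and 15.4 CPM (counts scaled to library size with TMM factors) in IFNAR1sg DMSO and 37.9 and 34.9 CPM in SCR DMSO, a log2 difference of -1.25 ± 0.20 (adjusted p = 0.0312, edgeR). The 4 interferon response genes ISG15, IFIT1, MX1 and OAS2 together had 275 to 294 CPM in IFNAR1sg IFNb and 47.4 to 51.8 CPM in IFNAR1sg DMSO, against 1500 to 1610 CPM in SCR IFNb and 46.1 to 51.8 CPM in SCR DMSO. IFNAR1sg cells were thus not without a response: 3 of the 4 were called higher after IFNb and 4 of 4 after MPS1i, in which they reached 389 to 442 CPM in IFNAR1sg and 890 to 949 CPM in SCR. Of 9 genes listed for the lung epithelial line, KEAP1 among them, 7 had reads in each of the 6 groups, with a summed level of 1770 to 4300 CPM. Summed fibroblast markers (10 genes) were 22.5 to 27.9 CPM in the MPS1i groups, 5.69 to 11.0 CPM in the IFNb groups and 4.28 to 4.55 CPM in the DMSO groups. Summed immune markers (9 genes) were 6.84 to 12.1 CPM, 2.37 to 11.1 CPM and 1.27 to 2.73 CPM in the same order of treatments; CD3E, a marker of T cells, was at 0 in both DMSO groups, as were the fibroblast collagens COL1A1 and COL3A1. The part of these genes in the results was not tested.

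Replication-dependent histones package newly made DNA. H3 and H4 form the core tetramer of the nucleosome, H2A and H2B join it as dimers, and H1 proteins bind the linker DNA. Their mRNAs are made mainly in S phase and, unlike other mRNAs, normally carry no poly(A) tail. Their 3′ end is instead cut just past a conserved stem-loop that SLBP binds, with the U7 snRNP guiding the cleavage. When that cut is missed, transcription runs on into the downstream DNA, and some histone genes, mostly H2A and H2B, also have longer polyadenylated transcripts.

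The stem-loop could be read from the annotated transcripts of 26 of the 74 genes. It was found by searching the GENCODE transcripts of the histone genes for a hairpin of 16 bases, with a stem of 6 base pairs and a loop of 4 bases. The stem had to start with GG, the loop with TT, and the hairpin had to end less than 200 bases past the stop codon. The examples are shown because they mark the place at which a correctly processed histone RNA ends; they are written 5′ to 3′ as DNA, and the capitals mark the paired bases of the stem.
H2AC13: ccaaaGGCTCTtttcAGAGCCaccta
H2BC8: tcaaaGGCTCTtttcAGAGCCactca
H2BC4: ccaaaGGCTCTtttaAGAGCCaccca
H2BC5: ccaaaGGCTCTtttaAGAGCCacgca
H3C8: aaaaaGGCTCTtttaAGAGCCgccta
H4C8: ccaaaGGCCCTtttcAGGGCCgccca
H4C9: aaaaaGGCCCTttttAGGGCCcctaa
Within that pattern, which fixed part of the stem and loop in advance, 4 hairpin forms occurred among the 26 genes. The form of H2AC13 and H2BC8 was carried by 15 genes, that of H2BC4, H2BC5 and H3C8 by 4, that of H4C8 by 4 and that of H4C9 by 3. The stems of H4C8 and H4C9 were found in H4 genes alone among these 26. The hairpin ended between 38 and 83 bases past the stop codon (median 52). In all 26 genes the first counted region past the stop codon began at least 5 bases beyond the hairpin (median 23). Over the 61 coding genes with a downstream region, that first region began a median of 84 bases past the stop codon, and within 200 bases in 53. In these 26 genes the regions past the stop codon thus lie beyond the stem-loop. In the other genes the stem-loop was not located, and 40 of the 750 gene-strand regions share at least 1 base with an annotated exon, so reads of the mature mRNA cannot be told apart there.

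Promoters came from RefSeq (GRCh38.p14), with 250 bases before and 50 after the start, and 59 of the 74 genes matched. A pair is shown because the downstream RNA of these 2 genes had different values below: H2BC12 (chr6:27146809-27147108, minus strand), whose downstream RNA was higher after either treatment in SCR, and H3C2 (chr6:26032050-26032349, minus strand), whose downstream RNA was higher after MPS1i. Capitals mark ATTTGCAT (the octamer bound by OCT1), TATAAA and CCAAT on either strand; TATAAA can overlap its own reverse match.
H2BC12: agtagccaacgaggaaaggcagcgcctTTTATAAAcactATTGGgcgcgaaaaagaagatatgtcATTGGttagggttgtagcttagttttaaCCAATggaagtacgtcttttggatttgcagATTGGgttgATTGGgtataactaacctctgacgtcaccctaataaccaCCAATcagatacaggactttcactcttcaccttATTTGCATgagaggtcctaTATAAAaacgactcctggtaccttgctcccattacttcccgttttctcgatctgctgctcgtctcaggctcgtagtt
H3C2: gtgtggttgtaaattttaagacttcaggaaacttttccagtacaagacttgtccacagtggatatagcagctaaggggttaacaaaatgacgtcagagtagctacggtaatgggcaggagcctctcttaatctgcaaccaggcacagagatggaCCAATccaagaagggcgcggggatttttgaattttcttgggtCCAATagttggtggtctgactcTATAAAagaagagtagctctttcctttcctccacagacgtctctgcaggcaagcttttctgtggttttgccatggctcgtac
ATTTGCAT was in 24 of 59 histone promoters (40.7%), against 1.77% of all 35116 promoters of the same length. It was in 13 of 16 H2B promoters, 10 of 14 H2A promoters and 1 of 11 H3 promoters, and in none of the 6 H1 or 12 H4 promoters. TATAAA was in 66.1% of histone promoters and 11.5% of all promoters, and CCAAT was in 84.7% and 34.6%. H2BC4 and H2AC6 are transcribed away from each other, and their 300-base windows share 255 bases. A match is a string of letters and says nothing of binding.

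RNA on the gene strand was about as abundant in both genotypes under DMSO and much higher after MPS1i in both, whereas after IFNb it was high in SCR cells and at the DMSO level in IFNAR1sg cells. Summed over the 750 regions, IFNAR1sg libraries had 879 and 837 CPM after MPS1i, 315 and 324 CPM after IFNb, and 332 and 338 CPM in DMSO. SCR libraries had 1080 and 1020 CPM after MPS1i, 780 and 823 CPM after IFNb, and 368 and 323 CPM in DMSO. The MPS1i libraries of each genotype and the SCR IFNb libraries lay above all DMSO libraries, and the IFNAR1sg IFNb libraries did not. The group means were 858 ± 29.7 and 335 ± 4.24 CPM for IFNAR1sg MPS1i and DMSO, and 1050 ± 42.4 and 346 ± 31.8 CPM for SCR MPS1i and DMSO (SD, n = 2). With 2 libraries a group, no exact permutation test of a single sum could reach p under 0.05, so the tests below come from the fit over all regions.

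**Figure D1:**
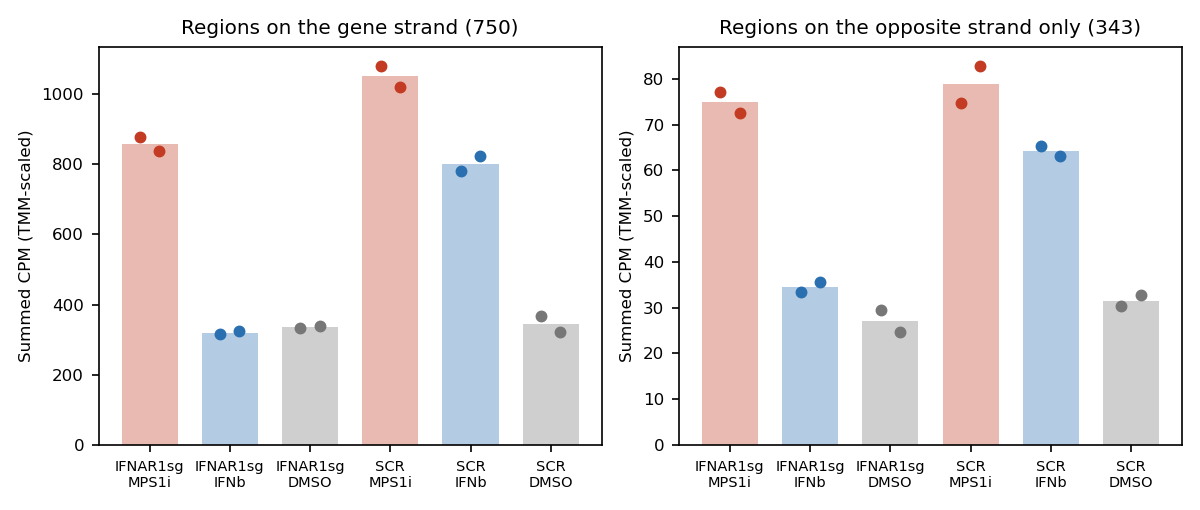
Summed CPM of all 750 gene-strand member regions (left) and all 343 opposite-strand member regions (right) in each library, scaled by TMM; points are libraries and bars are means of 2. The SCR IFNb bar stands well above its DMSO bar (802 against 346 CPM on the gene strand), and the IFNAR1sg IFNb bar does not (320 against 335 CPM).

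Opposite-strand regions had lower summed levels, and in these sums both treatments lay above DMSO in both genotypes. Summed over 343 regions, IFNAR1sg libraries had 77.2 and 72.6 CPM after MPS1i, 33.4 and 35.6 CPM after IFNb, and 29.5 and 24.6 CPM in DMSO. SCR libraries had 74.8 and 82.8 CPM after MPS1i, 65.4 and 63.1 CPM after IFNb, and 30.3 and 32.8 CPM in DMSO. Each treated pair lay above its DMSO pair, also the IFNAR1sg IFNb pair, which on the gene strand lay below it. These sums were not spread evenly over the 343 regions. Of their 3555 reads, 1033 fell in the region opposite H2AC11 that began 481 bases past the RefSeq end of H2BC12, on the H2BC12 strand. Regions opposite H2AC11 that began 9 and 2238 bases past that end held 160 and 110. The part of these regions in the rise of the sums was not tested. For every 100 gene-strand CPM there were 6.92 to 11.0 opposite-strand CPM across the 12 libraries. Input RNA was not analysed here, so more RNA and a larger double-stranded share of the same RNA cannot be told apart, nor can more cells that carry a transcript and more of it per cell.

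After MPS1i, downstream histone RNA was higher across all 5 families and in both genotypes, and no tested region was called lower. In IFNAR1sg cells 57 of 121 gene-strand regions were called higher and 0 lower (quasi-likelihood F-test of edgeR, Benjamini-Hochberg adjusted p under 0.05 over 89111 regions), where 9.41% of all regions were called higher and 7.85% lower. At an unadjusted p under 0.05 the counts were 76 and 1, beside 14378 and 13067 of all 89111 regions. In SCR cells 70 of 121 were called higher and 0 lower, against 9.5% and 8.0% of all regions. At an unadjusted p under 0.05 they were 93 and 0, beside 14319 and 13756 of all 89111 regions. The Wald test of DESeq2 called 42 higher and 0 lower in SCR. The median log2 fold change of the 121 regions was 1.49 in IFNAR1sg and 1.78 in SCR, beside 0.01 and -0.03 over all regions tested. Both MPS1i libraries lay above both DMSO libraries in 104 of the 121 regions in IFNAR1sg and in 108 in SCR. The 2 genotypes share no library, and 48 regions were called higher in both, 84.2% of those called in IFNAR1sg and 68.6% of those called in SCR. The shares of all regions that lay apart in this way, or were called in both genotypes, were not counted. These counts are therefore descriptions only. The labels do not say that libraries of a group came from separate cultures, so these p-values measure only the spread between the samples, which may be technical.

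Counted by family in SCR cells, MPS1i gave higher calls in 2 of 3 H1 regions, 12 of 26 H2A regions, 30 of 50 H2B regions, 13 of 19 H3 regions and 13 of 23 H4 regions. The median changes of the H2A, H2B, H3 and H4 regions were 1.37, 1.95, 2.0 and 1.69 on the log2 scale. The calls were spread over genes with annotated ends close to the stop codon and genes with a transcript annotated more than 1000 bases past it: 37 of 57 regions of the short class and 33 of 60 of the long class were called, with medians of 1.87 and 1.71. The 4 tested regions of pseudogenes gave no call.

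H2BC12, an H2B gene, had the most reads of any member region. Its region at chr6:27138540-27146352 (minus strand) begins 66 bases past the stop codon, runs through a long transcript annotated in RefSeq and carries LTR48B, L1 and Alu repeats in the deposited annotation. In IFNAR1sg libraries it had 82.4 and 80.4 CPM after MPS1i, 41.1 and 38.8 CPM after IFNb, and 36 and 35.1 CPM in DMSO. In SCR libraries it had 122 and 118 CPM after MPS1i, 183 and 188 CPM after IFNb, and 37.8 and 31.4 CPM in DMSO. The highest values were thus those of IFNb in SCR, and none of the treated pairs overlapped its DMSO pair. MPS1i raised it by 1.19 ± 0.16 on the log2 scale in IFNAR1sg (adjusted p = 4.28e-08) and by 1.79 ± 0.16 in SCR (adjusted p = 2.03e-14, edgeR for these and all adjusted p-values below).

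H3 genes encode the core histone that carries many of the best known chromatin marks. Of their 19 tested regions, 13 were called higher after MPS1i and 4 after IFNb in SCR, where 9.5% and 15% of all regions were called higher. The difference between families was not tested. The region of H3C2 at chr6:26030207-26031550 (minus strand) begins 100 bases past the stop codon. In IFNAR1sg it had 10.5 and 7.11 CPM after MPS1i, 1.81 and 1.67 CPM after IFNb, and 2.55 and 1.96 CPM in DMSO. In SCR it had 10.4 and 12 CPM after MPS1i, 1.83 and 2.15 CPM after IFNb, and 3.68 and 2.53 CPM in DMSO. MPS1i libraries were high in both genotypes, and the IFNb libraries lay below the DMSO libraries of their genotype. The MPS1i change was 1.98 ± 0.37 in IFNAR1sg (adjusted p = 5.14e-05) and 1.83 ± 0.35 in SCR (adjusted p = 6.87e-05); the IFNb change in SCR, -0.65 ± 0.50, did not pass (adjusted p = 0.313).

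H3C12, another H3 gene, was alike in pattern. Its region at chr6:27889402-27890279 (minus strand), 103 bases past the stop codon, had 16.8 and 18.8 CPM after MPS1i, 6.85 and 3.20 CPM after IFNb and 7.28 and 5.35 CPM in DMSO in IFNAR1sg. The SCR libraries had 21.2 and 15.9 CPM after MPS1i, 8.52 and 3.69 CPM after IFNb, and 6.68 and 4.75 CPM in DMSO. The MPS1i libraries stood above the rest and the IFNb libraries overlapped the DMSO libraries. The MPS1i change was 1.51 ± 0.29 in IFNAR1sg (adjusted p = 7.49e-05) and 1.67 ± 0.30 in SCR (adjusted p = 1.73e-05), and the IFNb change in SCR was 0.09 (adjusted p = 0.869).

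Other regions directly downstream of a stop codon also rose after MPS1i. H2AC13 (74 bases past the stop, chr6:27808676-27810051, plus strand), an H2A gene, had 27.7 and 25.8 CPM after MPS1i and 13.1 and 11.2 CPM in DMSO in IFNAR1sg, and 35.1 and 31.9 CPM against 11.9 and 12.4 CPM in SCR. H2BC8 (64 bases past, chr6:26215188-26216199, minus strand), an H2B gene, had 24.6 and 22.3 CPM after MPS1i and 5.64 and 7.04 CPM in DMSO in IFNAR1sg, and 27.8 and 23.8 CPM against 7.77 and 6.34 CPM in SCR. H1-2 (88 bases past, chr6:26053536-26055699, minus strand), which encodes a linker histone, had 3.18 and 4.83 CPM after MPS1i and 0.546 and 0.522 CPM in DMSO in IFNAR1sg, and 4.55 and 5.29 CPM against 1.36 and 1.11 CPM in SCR. No MPS1i library of these 3 regions overlapped a DMSO library of its genotype. The region of H1-2 had few reads in DMSO and may have passed the filter through its MPS1i libraries, so its rise is a description only. Their log2 changes in SCR were 1.46 (adjusted p = 4.6e-07), 1.86 ± 0.25 and 1.98 (adjusted p = 0.00327). The H2AC13 region shares 26 bases with an annotated exon.

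**Figure D2:**
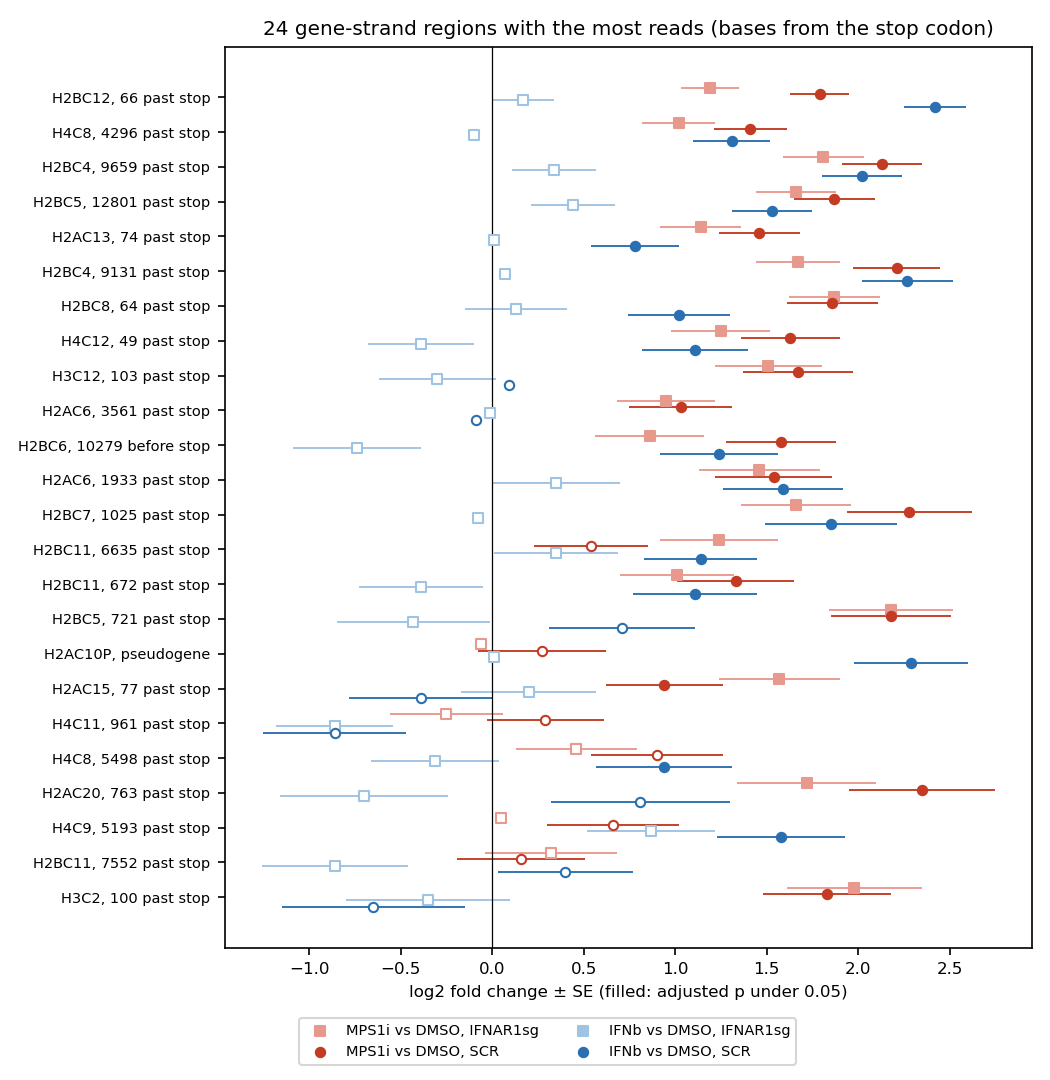
Log2 fold changes (x axis) of the 24 gene-strand regions with the most reads, each named by its gene and its distance from the stop codon; squares are IFNAR1sg, circles SCR, red MPS1i and blue IFNb, with filled symbols for an adjusted p under 0.05. Bars are standard errors, left out for changes under 0.1 where they are unreliable; every IFNb change in IFNAR1sg is open, and at H2BC12 in the top line the IFNb change in SCR (2.42) lies to the right of the MPS1i change (1.79).

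Another 3 regions with many reads were called higher after MPS1i in both genotypes. The region of H2BC6, an H2B gene, that lies in the annotated gene body before the coding sequence (chr6:26173897-26174554, plus strand) had 14 and 7.25 CPM after MPS1i and 7.46 and 4.43 CPM in DMSO in IFNAR1sg, and 22 and 14.8 CPM against 6.68 and 5.39 CPM in SCR. This region also starts within 5000 bases past the annotated end of H2BC5 (26171349) on the same strand, so RNA of the H2BC5 unit cannot be told apart there. The region of H2AC15, an H2A gene, 77 bases past the stop codon (chr6:27834972-27837870, minus strand) had 7.66 and 13 CPM after MPS1i and 3.28 and 3.65 CPM in DMSO in IFNAR1sg, and 13.4 and 8.63 CPM against 5.86 and 5.39 CPM in SCR. The region of H2AC20, an H2A gene on chromosome 1, 763 bases past the stop codon (chr1:149888127-149888514) also lies in BOLA1, and had 13.1 and 7.25 CPM after MPS1i and 2.37 and 3.65 CPM in DMSO in IFNAR1sg, and 13.1 and 10.2 CPM against 3.0 and 1.43 CPM in SCR. The MPS1i and DMSO libraries overlapped at H2BC6 in IFNAR1sg and at none of these regions otherwise. All 6 changes passed, from 0.86 (adjusted p = 0.0382) at H2BC6 in IFNAR1sg to 2.35 (adjusted p = 6.45e-06) at H2AC20 in SCR.

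Summed per gene, 38 of 54 tested gene-strand sums were higher after MPS1i in IFNAR1sg and 39 of 54 in SCR, with 0 lower in each. The median changes were 1.36 and 1.67. Over the gene-strand sums of all 21285 genes tested, 28% and 23.8% were called higher, 9.57% and 10.6% lower, and the medians were 0.33 and 0.28. Of the histone sums, 35 were called in both genotypes, 92.1% of those in IFNAR1sg and 89.7% of those in SCR. The share of all gene-strand sums called in both genotypes was not counted. The smallest adjusted p-values in SCR were those of H2BC12 (1.79, adjusted p = 5.41e-11), H2BC4 (2.11, adjusted p = 9.99e-11), H2BC5 (1.96, adjusted p = 1.2e-09) and H4C8 (1.43, adjusted p = 3.06e-08). Genes whose sum did not pass in either genotype included H4C11 (0.50 in SCR), H3C8 (0.58) and H2BC19P (-0.03). Sums with the largest changes had few reads: H3C11, an H3 gene, gave 3.83 ± 0.65 in IFNAR1sg and 1.98 ± 0.57 in SCR, H4C5, an H4 gene, gave 2.94 ± 0.52 and 1.96 ± 0.49, and H2BC21, an H2B gene on chromosome 1, gave 2.52 ± 0.50 and 2.53 ± 0.48. Among H1 genes, the sum of H1-2 was called in both genotypes, those of H1-1 (2.82 ± 0.69) and H1-3 (1.42 ± 0.37) in SCR, and that of H1-6 (1.89 ± 0.72) in IFNAR1sg. The chromosome 1 genes H3C14 and H3C15, and H4C14 and H4C15, are near-identical copies, so their values are uncertain.

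The MPS1i change was not called different between the genotypes at any member region. The interaction, coded as the change in IFNAR1sg minus the change in SCR, gave 0 calls in 121 gene-strand regions, 0 in 14 opposite-strand regions and 0 in the 54 gene-strand sums. Over all regions 0.0112% were called higher and 0.0505% lower, and over all gene-strand sums 0.193% and 0.287%. At an unadjusted p under 0.05, 1 gene-strand region was higher and 8 were lower, beside 3235 and 2796 of all 89111 regions. The Wald test of DESeq2 also gave 0 calls. The median interaction was -0.20 over the gene-strand members and 0.05 over all regions. A p that misses the threshold does not show that the changes were equal: at H2BC12 the changes were 1.19 ± 0.16 in IFNAR1sg and 1.79 ± 0.16 in SCR. Under DMSO the genotypes gave 0 calls among member regions, with 0.0135% of all regions called higher and 0.064% lower. The median over the gene-strand members was -0.02. At an unadjusted p under 0.05, 8 gene-strand regions were higher and 7 lower, beside 2581 and 3419 of all 89111 regions.

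IFNb changed downstream histone RNA in SCR cells and gave no call in IFNAR1sg cells. In IFNAR1sg, 0 of 121 gene-strand regions were called, where 0.547% of all regions were called higher and 0.132% lower. At an unadjusted p under 0.05, 6 were higher and 9 lower, beside 4745 and 3129 of all 89111 regions. The Wald test of DESeq2 gave 0 calls. The median change was -0.16 in IFNAR1sg. In SCR, 37 of 121 were called higher and 2 lower, against 15% and 18.1% of all regions, and the median was 0.85 against -0.36 over all regions. Leaving the TMM factors out moved the median of all regions by -0.32 in this comparison, and the counts became 23 higher and 4 lower with a median of 0.54. The difference between genotypes was itself tested: 15 of 121 gene-strand regions had a negative interaction and 0 a positive one, beside 5.11% and 7.05% of all regions. With no filter on low counts, 8 of the 11 interaction calls of smallest p (10 on the gene strand and 1 on the opposite strand) were lost. MPS1i and IFNb share the DMSO libraries of their genotype, so their values are set side by side and not correlated.

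At H2BC12 the IFNb change in SCR was 2.42 ± 0.17 (adjusted p = 3.79e-21), in IFNAR1sg it was 0.17, and the interaction was -2.25 ± 0.23 (adjusted p = 1.59e-11). Next came the distal regions of H2BC4, an H2B gene with a long annotated transcript. Its region at chr6:26112892-26113865 (minus strand), 9659 bases past the stop codon, had 42.2 and 30.5 CPM after MPS1i, 12.7 and 13.5 CPM after IFNb, and 9.10 and 11.3 CPM in DMSO in IFNAR1sg. In SCR it had 48.3 and 53.7 CPM after MPS1i, 41.4 and 53.5 CPM after IFNb, and 13.1 and 10.1 CPM in DMSO. Both treatments gave like levels in SCR, far above DMSO, and only MPS1i did so in IFNAR1sg. The IFNb change was 2.02 ± 0.22 in SCR (adjusted p = 5.98e-12) and the interaction was -1.68 (adjusted p = 0.00013).

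H4C8, an H4 gene, held both behaviours within 1 transcript unit. Its region at chr6:26283181-26285031 (minus strand), 157 bases past the stop codon, had 5.31 and 7.05 CPM after MPS1i, 3.35 and 3.38 CPM after IFNb, and 3.27 and 2.53 CPM in DMSO in SCR. Its region at chr6:26279704-26280892, 4296 bases past the stop codon, had 58.4 and 46.0 CPM after MPS1i, 46.3 and 50.5 CPM after IFNb, and 22.6 and 16.3 CPM in DMSO in SCR. At the near region IFNb stood barely above DMSO; at the far one it reached the MPS1i level. The IFNb changes were 0.20 ± 0.47 (adjusted p = 0.756) near and 1.31 ± 0.21 (adjusted p = 3.91e-07) far, and the MPS1i changes in SCR were 1.09 ± 0.40 (adjusted p = 0.0438) and 1.41 ± 0.20 (adjusted p = 9.02e-08). The difference between the 2 regions was not tested.

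H2BC5, an H2B gene, was similar. Its region 63 bases past the stop codon (chr6:26158613-26159142, plus strand) had 4.04 and 4.93 CPM after MPS1i, 0 and 1.54 CPM after IFNb, and 0.273 and 0.792 CPM in DMSO in SCR. Its region 721 bases past (chr6:26159271-26164055) had 15.2 and 16.2 CPM after MPS1i, 6.09 and 5.23 CPM after IFNb, and 3.41 and 3.49 CPM in DMSO in SCR. Its region 12801 bases past (chr6:26171351-26172058), just beyond the annotated long transcript, had 48.3 and 43.3 CPM after MPS1i, 30.1 and 42.5 CPM after IFNb, and 12.5 and 12.5 CPM in DMSO in SCR. After IFNb the first region overlapped DMSO, and the other 2 did not. The first region had few reads in DMSO and after IFNb in SCR, and may have passed the filter through its MPS1i libraries. The IFNb change was called at the last region alone of the 3 (1.53, adjusted p = 6.78e-08).

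**Figure D3:**
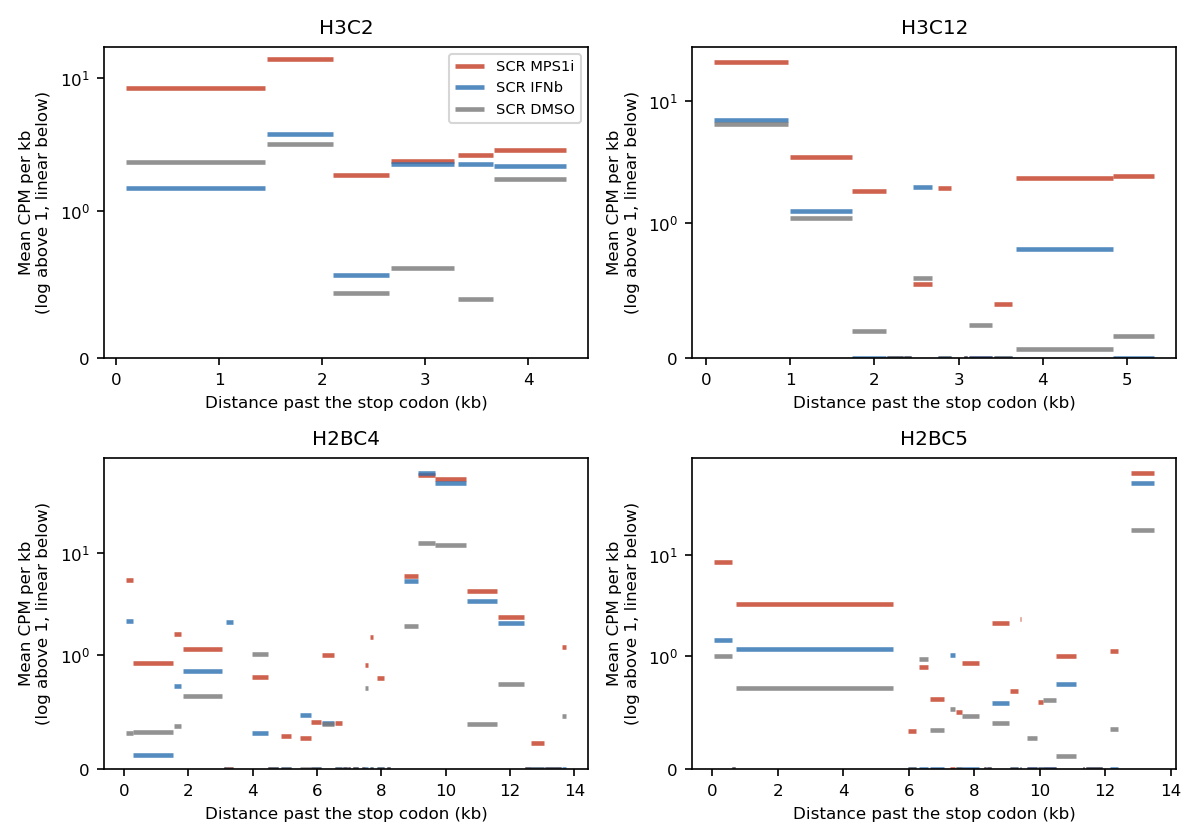
Mean CPM per kb (y axis, logarithmic above 1 and linear below) of the regions downstream of H3C2, H3C12, H2BC4 and H2BC5 against distance past the stop codon in kb, in SCR cells; each bar spans 1 region and is a mean of 2 libraries. MPS1i (red) lies above IFNb (blue) and DMSO (grey) near the stop codon, and at the distal regions of H2BC4 and H2BC5 the IFNb bars approach the MPS1i bars (41.4 and 53.5 CPM after IFNb, 48.3 and 53.7 CPM after MPS1i at the region of H2BC4 9659 bases past the stop).

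At H2AC6 the order along the transcript was the other way round. This H2A gene had a region 1933 bases past the stop codon (chr6:26126558-26128151, plus strand) with an IFNb change of 1.59 ± 0.33 in SCR (adjusted p = 0.000128). The next tested region, 3561 bases past (chr6:26128186-26130659), had -0.09 (adjusted p = 0.844). The MPS1i changes of the 2 regions in SCR were 1.54 ± 0.32 and 1.03 ± 0.28, both called. In IFNAR1sg the IFNb changes were 0.35 ± 0.35 and -0.01.

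Other H2B and H4 genes were high after either treatment in SCR. The region of H2BC7, an H2B gene, 1025 bases past the stop codon (chr6:26200964-26202153, plus strand) had 12.9 and 14.2 CPM after MPS1i, 3.62 and 4.45 CPM after IFNb, and 4.37 and 4.17 CPM in DMSO in IFNAR1sg. The SCR libraries had 13.9 and 10.7 CPM after MPS1i, 8.83 and 9.23 CPM after IFNb, and 2.32 and 2.69 CPM in DMSO. The region of H4C12, an H4 gene, 49 bases past the stop codon (chr6:27825395-27831167, minus strand) had 22.2 and 18.3 CPM after MPS1i, 14.9 and 13.2 CPM after IFNb, and 8.59 and 4.28 CPM in DMSO in SCR. In both regions no treated SCR library overlapped a DMSO library. Their IFNb changes in SCR were 1.85 (adjusted p = 4.28e-05) and 1.11, and the interactions -1.93 (adjusted p = 0.00569) and -1.50 (adjusted p = 0.0103). Of the per-gene sums, 0 of 54 were called after IFNb in IFNAR1sg, where 1.04% of all gene-strand sums were higher and 0.319% lower, and the Wald test of DESeq2 gave 0 too. In SCR 21 of 54 were higher and 0 lower, where 19.8% of all were higher and 21.2% lower. At 13 of 54 the interaction was negative and at 0 positive, beside 8.3% and 11.9% of all sums. Among those 13 was H2BC18 on chromosome 1, with a sum change after IFNb of -0.40 ± 0.30 in IFNAR1sg and 1.96 ± 0.27 in SCR.

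A few regions were called after IFNb and not after MPS1i in SCR. The largest in reads was the region given to H2AC10P, a pseudogene of the H2A family (chr6:26271430-26271976, minus strand). This region lies past the end of H2AC10P (26272021) and overlaps the annotated start of H3C8 (26271815) on the same strand. Of its bases, 386 lie in annotated exons. It had 6.21 and 4.16 CPM after MPS1i, 5.56 and 5.28 CPM after IFNb, and 5.10 and 5.61 CPM in DMSO in IFNAR1sg. In SCR it had 4.55 and 5.99 CPM after MPS1i, 25.3 and 18.5 CPM after IFNb, and 5.32 and 3.49 CPM in DMSO. The SCR IFNb pair stood alone. The IFNb change was 2.29 ± 0.31 (adjusted p = 7.34e-09), the interaction -2.28 (adjusted p = 0.000219) and the MPS1i change 0.27 ± 0.35 (adjusted p = 0.633). The region of H3C8, the H3 gene that the H2AC10P region also overlaps, begins 61 bases past the stop codon and lies wholly in annotated exons. It had an IFNb change of 1.35 ± 0.48 (adjusted p = 0.023), and the region of H4C9 5193 bases past had 1.58 ± 0.35 (adjusted p = 0.000282). The 2 regions called lower after IFNb were weakly covered: one of H2AC20 that also lies in BOLA1, a gene of mitochondrial iron-sulfur assembly, with 0.304 and 0.923 CPM after IFNb and 3.14 and 1.27 CPM in DMSO, and one of H2BC11 that was at 0 in both IFNb libraries and at 0.818 and 1.11 CPM in DMSO.

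Set directly against each other in SCR cells, MPS1i gave 27 gene-strand regions higher and 3 lower than IFNb, of 121, where 6.82% and 5.82% of all regions were called; the median difference was 0.86 and that over all regions 0.20. The difference depended little on distance within 5000 bases of the stop codon. The median was 1.06 over the 30 regions starting within 200 bases past it, 1.15 over 9 regions beyond that and within 1000 bases, and 1.12 over 41 regions beyond that and within 5000 bases. Over the 29 regions starting more than 5000 bases past it the median was 0.29, and 2 were called higher, a share near the 6.82% of all regions. All but 1 of those 29, that of H4C9, belong to genes with a transcript annotated more than 1000 bases past the stop codon. In the same bins the median MPS1i change in SCR was 1.73, 2.35, 1.87 and 1.74. The median IFNb change in SCR was 0.56, 0.81, 0.85 and 1.37, with 9, 2, 7 and 13 regions called higher. Of all regions 15% were called higher after IFNb in SCR, and the 7 of 41 in the third bin lay near that share. Medians over bins are descriptions, and regions of 1 gene share their source.

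**Figure D4:**
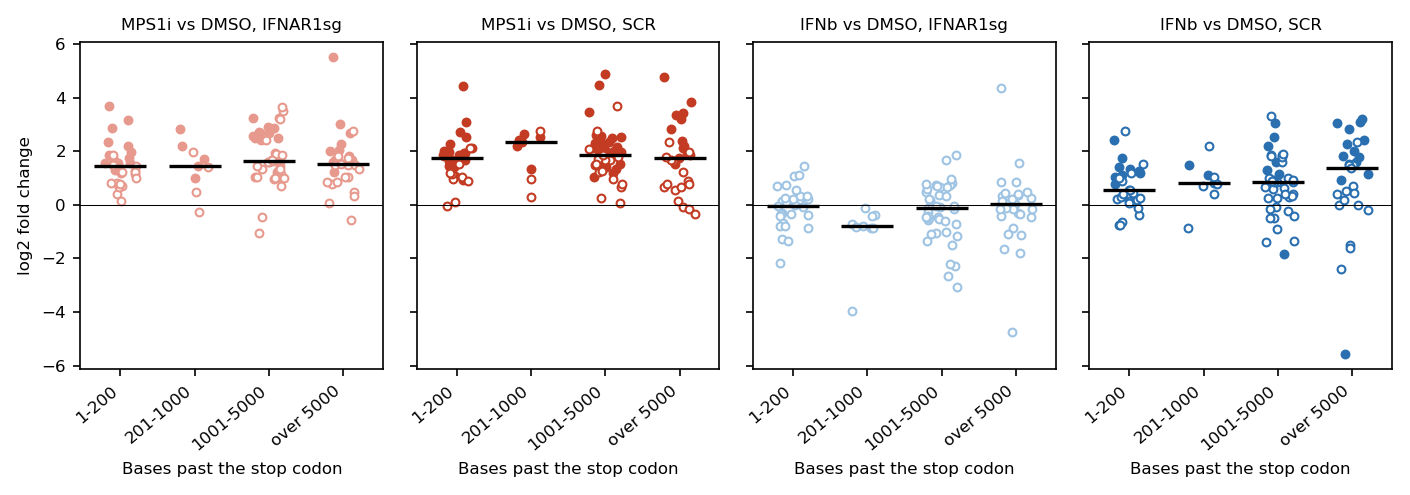
Log2 fold changes (y axis) of tested gene-strand regions by distance past the stop codon in bases (x axis), in 4 comparisons; points are regions, filled where the adjusted p was under 0.05, and black lines are medians. The MPS1i medians lie between 1.43 and 2.35 in every bin of both genotypes, and the IFNb median in SCR is 0.56 in the nearest bin and 1.37 in the farthest. The lowest SCR IFNb point is a region of H2BC11 at 0 in both IFNb libraries, so its height is no estimate of size.

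Of the adjusted p-values given here for this direct comparison, the smallest was that of the region given to H2AC10P, which was lower after MPS1i. Regions of H3 genes were among those higher after MPS1i. H3C2 was higher after MPS1i than after IFNb by 2.48 ± 0.44 (adjusted p = 1.96e-05) and H3C12 by 1.58 ± 0.33 (adjusted p = 0.000345). H3C3, an H3 gene, had a region 1605 bases past the stop codon at 3.98. Among per-gene sums, 23 of 54 were higher after MPS1i than after IFNb and 3 lower, where 23.6% and 10.2% of all gene-strand sums were called. By family of the regions, higher calls were 7 of 19 for H3, 8 of 26 for H2A, 7 of 50 for H2B, 4 of 23 for H4 and 1 of 3 for H1. The 3 regions lower after MPS1i than after IFNb were those of H2BC12 (-0.63 ± 0.16, adjusted p = 0.00299), H2AC10P (-2.03 ± 0.32, adjusted p = 1.58e-06) and H3C8 (-1.41 ± 0.50). That given to H2AC10P also overlaps the annotated H3C8 gene.

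On the opposite strand, 5 of 14 regions were called higher after MPS1i in IFNAR1sg and 5 of 14 in SCR, 2 of them in both, and none lower, where 9.41% and 9.5% of all regions were called higher. Without TMM factors the count in SCR was 2. The medians were 1.23 and 1.32. After IFNb, 0 were called in IFNAR1sg (3 higher and 2 lower at an unadjusted p under 0.05) and 2 higher in SCR, a share near the 15% of all regions called higher in that comparison. At that unadjusted p, 4745 of all 89111 regions were higher and 3129 lower in IFNAR1sg. Whether the 14 regions were antisense transcripts of the histone gene was not tested. Of the 14, 11 lay within 20000 bases past the annotated end of another histone gene on their own strand. The genes lie close together in these clusters, and the share of other positions that do so was not counted. Those opposite H2AC11 began 9, 481 and 2238 bases past the RefSeq end of H2BC12. The nearest of the rest began 6955 bases past the end of H4C1. The best covered one, opposite H2AC11 (chr6:27136070-27137812, minus strand, with a MER41B repeat), began 481 bases past the RefSeq end of H2BC12 on the strand of H2BC12. It had 23.7 and 22.1 CPM after MPS1i, 7.50 and 8.89 CPM after IFNb, and 6.37 and 4.82 CPM in DMSO in IFNAR1sg. The SCR libraries had 23.5 and 26.8 CPM after MPS1i, 26.8 and 26.5 CPM after IFNb, and 6.54 and 6.81 CPM in DMSO. Its order was that of H2BC12 in that the IFNb pair was high in SCR alone, with changes of 2.05 in IFNAR1sg and 1.92 in SCR for MPS1i (adjusted p = 1.71e-09 and 5.97e-09), 1.99 for IFNb in SCR (adjusted p = 1.31e-09) and an interaction of -1.43 (adjusted p = 0.00673). Summed per gene, 29 opposite-strand sums were tested, of which 19 in IFNAR1sg and 22 in SCR were higher after MPS1i and 0 lower, where 29% and 21.5% of all opposite-strand sums were higher and 4.36% and 5.39% lower. After IFNb in SCR 5 of 29 were higher, a share below the 24.3% of all opposite-strand sums (11.8% lower), and 3 had a negative interaction, beside 7.88% of all (5.5% positive). Without regions that were also the gene-strand member of a neighbour, 14 sums were tested, and 7 in each genotype were higher.

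Genes that process or degrade histone mRNA were called in both directions after MPS1i. In sums over gene-strand regions, 29 genes of 3′ processing and decay were tested, and after MPS1i 2 were higher and 7 lower in IFNAR1sg, and 5 higher and 7 lower in SCR. Of all gene-strand sums 28% were higher and 9.57% lower in IFNAR1sg, and 23.8% and 10.6% in SCR. Without TMM factors the counts of the list were 1 and 11 in IFNAR1sg and 2 and 10 in SCR. After IFNb in SCR 10 were higher and 6 lower, where 19.8% of all gene-strand sums were higher and 21.2% lower. The lower count was near that share. Without TMM factors the counts of the list were 3 and 10, so its direction depended on the scaling. PATL1, a factor of mRNA decapping that binds the LSM ring, had 37.0 and 31.9 CPM after MPS1i, 23.5 and 19.9 CPM after IFNb, and 16 and 11.1 CPM in DMSO in IFNAR1sg. In SCR it had 59.7 and 49.3 CPM after MPS1i, 146 and 136 CPM after IFNb, and 12.8 and 14.7 CPM in DMSO. PATL1 was highest in the SCR IFNb pair, and it rose after MPS1i by 1.37 ± 0.18 in IFNAR1sg (adjusted p = 3.01e-06) and by 1.98 ± 0.18 in SCR (adjusted p = 4.61e-09).

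SLBP, which binds the stem-loop, had 166 and 150 CPM after MPS1i, 220 and 196 CPM after IFNb, and 151 and 157 CPM in DMSO in IFNAR1sg. The SCR libraries had 188 and 171 CPM after MPS1i, 382 and 353 CPM after IFNb, and 138 and 141 CPM in DMSO. Its change after IFNb in SCR was 1.40 ± 0.11 (adjusted p = 8.51e-11), and after MPS1i it was 0.03 (adjusted p = 0.831) in IFNAR1sg and 0.36 ± 0.11 (adjusted p = 0.0136) in SCR. The SCR change after MPS1i was not called without TMM factors (0.19). WDR33, the polyadenylation factor that reads the AAUAAA signal, fell after MPS1i by 0.49 in IFNAR1sg and by 0.95 in SCR, and SYMPK, a scaffold of the cleavage complex, fell by 0.65 and 0.66. These sums hold introns and downstream RNA bound by J2 and are not mRNA levels.

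Histone genes outside the clusters, listed as polyadenylated and variant histones, were mixed. Not all of their mRNAs end only at a poly(A) site. Of 10 tested, 3 were higher and 4 lower after MPS1i in each genotype. The higher share is near that of all gene-strand sums (28% in IFNAR1sg and 23.8% in SCR), and the lower share is above it (9.57% and 10.6%). H2AZ2, an H2A variant gene, had 497 and 441 CPM after MPS1i and 863 and 817 CPM in DMSO in IFNAR1sg, and 431 and 392 CPM against 894 and 772 CPM in SCR. H2AX, the H2A variant phosphorylated at DNA breaks, whose mRNA can end either at a stem-loop or at a poly(A) site, had 8.81 and 15.2 CPM after MPS1i and 5.82 and 4.95 CPM in DMSO in IFNAR1sg, and 20.7 and 14.6 CPM against 3.41 and 5.07 CPM in SCR. H2AZ2 was lower and H2AX higher after MPS1i without overlap, by -0.84 ± 0.10 and 1.17 ± 0.31 in IFNAR1sg and by -1.02 ± 0.10 and 2.05 ± 0.32 in SCR. CENPA, the centromeric H3 variant, fell by 0.61 in IFNAR1sg and by 0.73 in SCR, and H3-3B, which encodes H3.3, rose by 0.93 and 1.42.

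Of 42 S phase genes, 3 were higher and 19 lower after MPS1i in IFNAR1sg, and 5 higher and 15 lower in SCR, which became 2 and 20 in SCR without TMM factors. Of all gene-strand sums, 28% were higher and 9.57% lower in IFNAR1sg, and 23.8% and 10.6% in SCR. The medians of the list were -0.33 and -0.29, where all gene-strand sums had 0.33 and 0.28. POLE, a replicative DNA polymerase subunit, fell by 1.29 in IFNAR1sg (adjusted p = 2.67e-07) and by 1.04 in SCR (adjusted p = 1.06e-05), and E2F2, an activator of S phase genes, fell by 1.57 and 1.62. The part of these genes in the histone results was not tested. After IFNb in SCR, 13 of the 42 were higher and 13 lower, where 19.8% of all gene-strand sums were higher and 21.2% lower. Without TMM factors the counts of the list were 7 and 15.

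**Figure D5:**
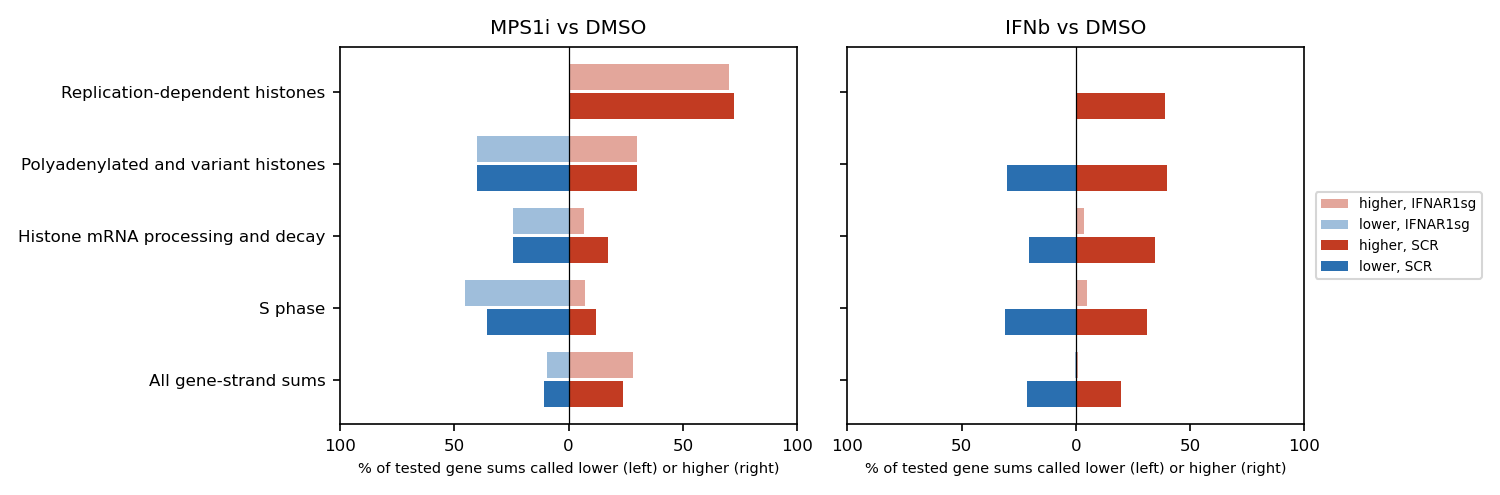
Percent of tested gene sums called higher or lower (x axis) for gene-strand sums of the histone genes, of the other gene lists and of all genes, drawn left of 0 for lower and right of it for higher calls, in MPS1i against DMSO and IFNb against DMSO, with IFNAR1sg in lighter and SCR in darker colours. After MPS1i the histone sums have higher calls and no lower ones (39 of 54 in SCR), and S phase genes have mostly lower calls (15 lower and 5 higher of 42 in SCR).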

How the data were processed

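The authors deposited 1 table of raw counts, per its column names, with 12 libraries of J2-bound RNA over 5254113 stranded regions, of which 2423599 had no read. Tools listed by the submitters' processing notes are STAR, featureCounts, HOMER, cutadapt, Trimmomatic and Trim Galore, with the build hg38. Their versions, and how multi-mapped reads were counted, are not given in the sources used here. Per the labels' protocols the kit kept the strand. Most regions leave out exons of their own strand.

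Members were matched to GENCODE genes and their GENCODE ends, 70 by identifier and 4 by older symbol. The members and lists were chosen with earlier results of these data known. Counts were fitted with edgeR 4.0.16 (R 4.3.3): all 12 libraries, 1 coefficient per group, TMM factors, filterByExpr (count 10, total 15, proportion 0.7), the quasi-likelihood F-test and Benjamini-Hochberg adjustment over 89111 regions or 38812 gene sums, called at 0.05 with no fold limit. Sums took each region in a gene or within 5000 bases past its end, by strand. CPM were computed on TMM-scaled totals, with 1826 to 6237 gene-strand member reads per library. Standard errors are the log2 change divided by the root of F. They include the fitted spread between libraries, which may be technical. The contrast of MPS1i with IFNb was added after seeing the data. In each comparison the features named are those of smallest p, plus the members with the most reads; regions chosen to show the same gene at several distances were picked after their values were seen. The fit was tested on simulated data for MPS1i against DMSO in SCR, where it called falls less often than rises of the same size. DESeq2 1.42.0, other scalings and filters, a replicate block, left-out libraries and a window of 1000 bases were alternatives. Figures used matplotlib 3.10.9.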

Additional observations from a re-analysis of the deposited data

Results flagged for a closer look

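The IFNb change differed between genotypes by the interaction term (change in IFNAR1sg minus change in SCR, edgeR, adjusted p under 0.05) at 16 member regions and 16 gene sums, all negative. Among gene-strand regions the log2 interaction was -2.25 at H2BC12, -2.21 and -1.68 at the 2 distal regions of H2BC4, -2.28 at H2AC10P, -1.41 at H4C8, -1.98 at H2BC6, -1.93 at H2BC7, -1.50 at H4C12 and -1.10 at H2BC5. On the opposite strand it was -1.43 at H2AC11. The region given to H2AC10P also overlaps the annotated start of H3C8, and that given to H2BC6 also lies downstream of H2BC5.

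Others rest on few reads. It was -2.53 at H3C13, with 1.03 and 2.08 CPM in IFNAR1sg IFNb, 4.0 and 3.52 CPM in IFNAR1sg DMSO, 4.87 and 4.31 CPM in SCR IFNb and 2.04 and 1.74 CPM in SCR DMSO. It was -4.58 at H3C4, -1.50 at H2BC11, -2.47 at H2AC11 on the gene strand and -3.91 at a region of H2BC18. A second region of H2BC18 was at 0 in both IFNAR1sg IFNb libraries, so its fitted -7.95 is no estimate of size.

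The gene sums gave -2.25 at H2BC12, -1.85 at H2BC4, -1.38 at H4C8, -1.78 at H2BC6, -2.36 at H2BC18, -2.28 at H2AC10P, -1.13 at H2BC5, -1.10 at H2BC11, -2.53 at H3C13, -1.50 at H4C12, -1.43 at H2BC7, -1.74 at H3C10 and -1.72 at H4C4, and on the opposite strand -2.13 at H2AC11, -1.40 at H4C11 and -0.91 at H2AC14. Both SCR IFNb libraries had reads in fewer regions than the other 10 (295367 and 296843); the part of this in the interaction was not tested.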

How the results depend on the processing

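Counts here are member regions or histone gene sums called in either direction, both strands together. Of 354 alternatives to 16 such counts, 331 stayed within 1.5 times the reported count. Among those 331 were counts of 0 that stayed at 0, and fits without a library of a group outside the comparison. Such alternatives test the counts little. Regions called were 75 for MPS1i in SCR, 43 with the Wald test of DESeq2 and 45 with no filter. For IFNb in SCR they were 41, and 16 with no filter, and for the IFNb interaction 16 and 3. For MPS1i against IFNb in SCR they were 31, and 15 with the Wald test, 19 with no filter and 19 with a window of 1000 bases. Gene sums were 57 for MPS1i in IFNAR1sg and 36 with that window, 26 for IFNb in SCR and 17 with no filter, 16 for the IFNb interaction and 9 with no filter, and 34 for MPS1i against IFNb and 18 with that window. With a 1000-base window fewer regions enter. The opposite-strand sum of H2AC11, MPS1i against IFNb in SCR, was -0.53 and became 0.01 with that window (adjusted p = 0.986, edgeR).

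Leaving out 1 library at a time gave 38 to 70 regions for MPS1i in IFNAR1sg, 51 to 78 for MPS1i in SCR, 21 to 41 for IFNb in SCR, 11 to 17 for the IFNb interaction and 12 to 31 for MPS1i against IFNb. Sums ranged over 50 to 60, 48 to 62, 17 to 27, 13 to 17 and 16 to 38 in that order. The remaining comparisons stayed at 0. The lone library left in a group is then assumed to vary like the others. The counts fell by over 1.5 times for MPS1i in IFNAR1sg without IFNAR1sg DMSO replicate 1 (38), for IFNb in SCR without SCR DMSO replicate 2 (26) or SCR IFNb replicate 1 (26) or 2 (21; sums 17), and for MPS1i against IFNb without SCR MPS1i replicate 1 (18; sums 20) or 2 (18), or SCR IFNb replicate 1 (12; sums 16) or 2 (16; sums 16). The cause was not tested. Without both SCR IFNb libraries, MPS1i gave 64 regions in IFNAR1sg and 75 in SCR.

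Replicate numbers did not pair the samples: correlations of same-numbered deviations ran from -0.054 to 0.0849 over 15 group pairs. With a replicate block, regions called were 62 for MPS1i in IFNAR1sg, 75 for MPS1i in SCR, 40 for IFNb in SCR, 16 for the IFNb interaction and 31 for MPS1i against IFNb, and sums were 56, 59, 27, 16 and 34; 150 of 150 named calls were kept. Of these 150, 26 were lost with no filter, 11 with the Wald test, 6 without TMM factors, and 12 without SCR IFNb replicate 1 or without replicate 2.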
